A study of Drosophila melanogaster with 2 samples.

Results

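The dosage compensation complex genes of Drosophila melanogaster were examined for peaks of the zinc finger protein Wdn. They are 8 of the 18277 genes annotated on the main chromosomes, namely msl-1, msl-2, msl-3, mof, mle, the long noncoding RNA genes roX1 and roX2 (lncRNA:roX1 and lncRNA:roX2 in the annotation), and Clamp. All 8 were found in the annotation by symbol. They were chosen by name, with earlier results of these data known. A peak was assigned to a gene when its summit, the position of highest signal within the peak, lay between the first and last base of the gene or within 1 kb of any of its annotated transcript starts.

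The male-specific lethal (MSL) complex raises transcription from the X chromosome of male flies to the output of the female pair of X chromosomes. It consists of the scaffold MSL1, the RING finger protein MSL2, the chromodomain protein MSL3, the acetyltransferase MOF, which modifies histone H4, the RNA helicase MLE and a roX RNA. MSL2 is made in males because Sxl, the switch protein of female development, represses msl-2 mRNA in females. CLAMP, a zinc finger protein that binds GA repeats, helps the complex to reach its entry sites on the X, and both roX genes are transcribed from the X and hold such sites.

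The data were chromatin immunoprecipitation sequencing (ChIP-seq) peak lists from 1 group of 2 biological replicates. Each was made from whole embryos aged 0 to 24 hours of the transgenic strain wdn-GFP, whose Wdn protein is fused to eGFP, and an anti-GFP antibody recovered the sonicated chromatin (size range 200 to 800, with no unit given). The embryos mixed ages and cell types, and their sex was not collected, so male and female binding at these genes cannot be told apart. A control library named as possible was not analysed here, and read depth is unknown because the lists hold no read counts.

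Wdn was listed at 1 of the 8 genes, msl-1, where the peak stood just upstream of the start in both replicates. The main list, made from both replicates at an irreproducible discovery rate (IDR) of at most 0.01, had a summit at 3232 of the 18277 genes, or 17.7%, so the count of 1 among 8 is near that background share. IDR measures how well the ranking of a peak is repeated between data sets, and a low value means a well repeated peak. A weaker unlisted peak stood at the 5′ end of roX1 and another at that of roX2, and a listed peak lay just past the 3′ end of roX2. The msl-2, msl-3, mof and Clamp genes had no listed peak within several kilobases of their starts.

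The sequences at the msl-1 peak and the roX1 and roX2 start peaks are given because these were the highest signals assigned to a member. That of the listed peak overlapping the 3′ end of roX2 is given too. The msl-2 site was added as the member site that held more than 1 of the searched words within 50 bp of its summit. A stronger listed peak past the 3′ end of mle, which overlapped no base of that gene, is not printed. Each run holds 121 bases on dm6, 60 on either side of the summit, read from the RefSeq Release 6 genome in the direction of the gene's transcription. Capitals run from the summit of 1 replicate to that of the other, except for msl-2, where they mark the words described further on. The msl-1 run is the minus strand of chr2L:18688838-18688958, that of roX1 the minus strand of chrX:3862628-3862748, and those of roX2 the plus strand of chrX:11579201-11579321 for the start and chrX:11580389-11580509 for the 3′ end. The msl-2 run is the minus strand of chr2L:3465980-3466100.
msl-1 upstream of the start: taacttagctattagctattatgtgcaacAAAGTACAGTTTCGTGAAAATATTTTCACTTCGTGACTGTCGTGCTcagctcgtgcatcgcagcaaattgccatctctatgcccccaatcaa
lncRNA:roX1 at the start: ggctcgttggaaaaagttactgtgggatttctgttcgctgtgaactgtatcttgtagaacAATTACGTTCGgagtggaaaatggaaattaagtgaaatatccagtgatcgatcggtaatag
lncRNA:roX2 near the start: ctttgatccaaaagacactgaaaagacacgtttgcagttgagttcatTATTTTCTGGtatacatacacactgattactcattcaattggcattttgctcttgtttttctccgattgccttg
lncRNA:roX2 at the 3′ end: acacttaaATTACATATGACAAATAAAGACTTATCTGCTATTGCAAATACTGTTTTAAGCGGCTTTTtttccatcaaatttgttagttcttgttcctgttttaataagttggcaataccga
msl-2 near the start: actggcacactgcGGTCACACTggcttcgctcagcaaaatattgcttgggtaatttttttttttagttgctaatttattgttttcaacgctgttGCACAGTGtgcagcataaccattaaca

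The scaffold gene msl-1 (FBgn0005617, 2L 18683720 to 18688800, minus strand) carried the listed peak. It spanned 2L 18688746 to 18689049, and its summit at 18688898 lay 98 bp upstream of the only annotated start, outside the gene body. That is close to the usual place of main-list summits near starts, which had a median of -95 bp (quartiles -174 and -16 bp, 1705 summits within 500 bp of a start, negative values upstream). The nearest start of CG10336, transcribed away from msl-1, lay 630 bp from the same summit. The signal value, which the authors' peak caller gave and whose reference was not stated, was 104 in the main list, rank 1003 of 3254, and 69.2% of main-list peaks were lower. The global IDR was 0.000179 in the main ranked list and 0.000383 in the conservative one. The conservative list, a smaller list from both replicates, held the peak as well, with 15.5% of all genes called there.

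Both replicates listed the msl-1 peak on their own. Its signal was 66.3 in replicate 1, rank 704 of 1996 with an IDR of 0.000184, and 39.9 in replicate 2, rank 1491 of 1796 with an IDR of 0.00292. The replicate mean was 53.1 ± 18.7 (SD, n = 2), and the 2 summits, at 18688884 and 18688929, were 45 bp apart. The peak thus stood in the upper part of the list of replicate 1 and in the lower part of that of replicate 2. The log2 ratio of replicate 1 to replicate 2 was 0.73 here, against a median of 0.07 over main-list peaks ranked in both replicates (quartiles -0.31 and 0.50), and 24.4% of those peaks had a larger difference in either direction. Of 12 ranked peaks at msl-1, the other 11 were unlisted, with a main IDR of 0.558 or more. The strongest of them, with a signal of 29.7, lay 843 bp upstream of msl-1 and inside CG10336, 48 bp before a later start of that gene, and 6 of the 12 overlapped no ranked peak of either replicate.

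**Figure D1:**
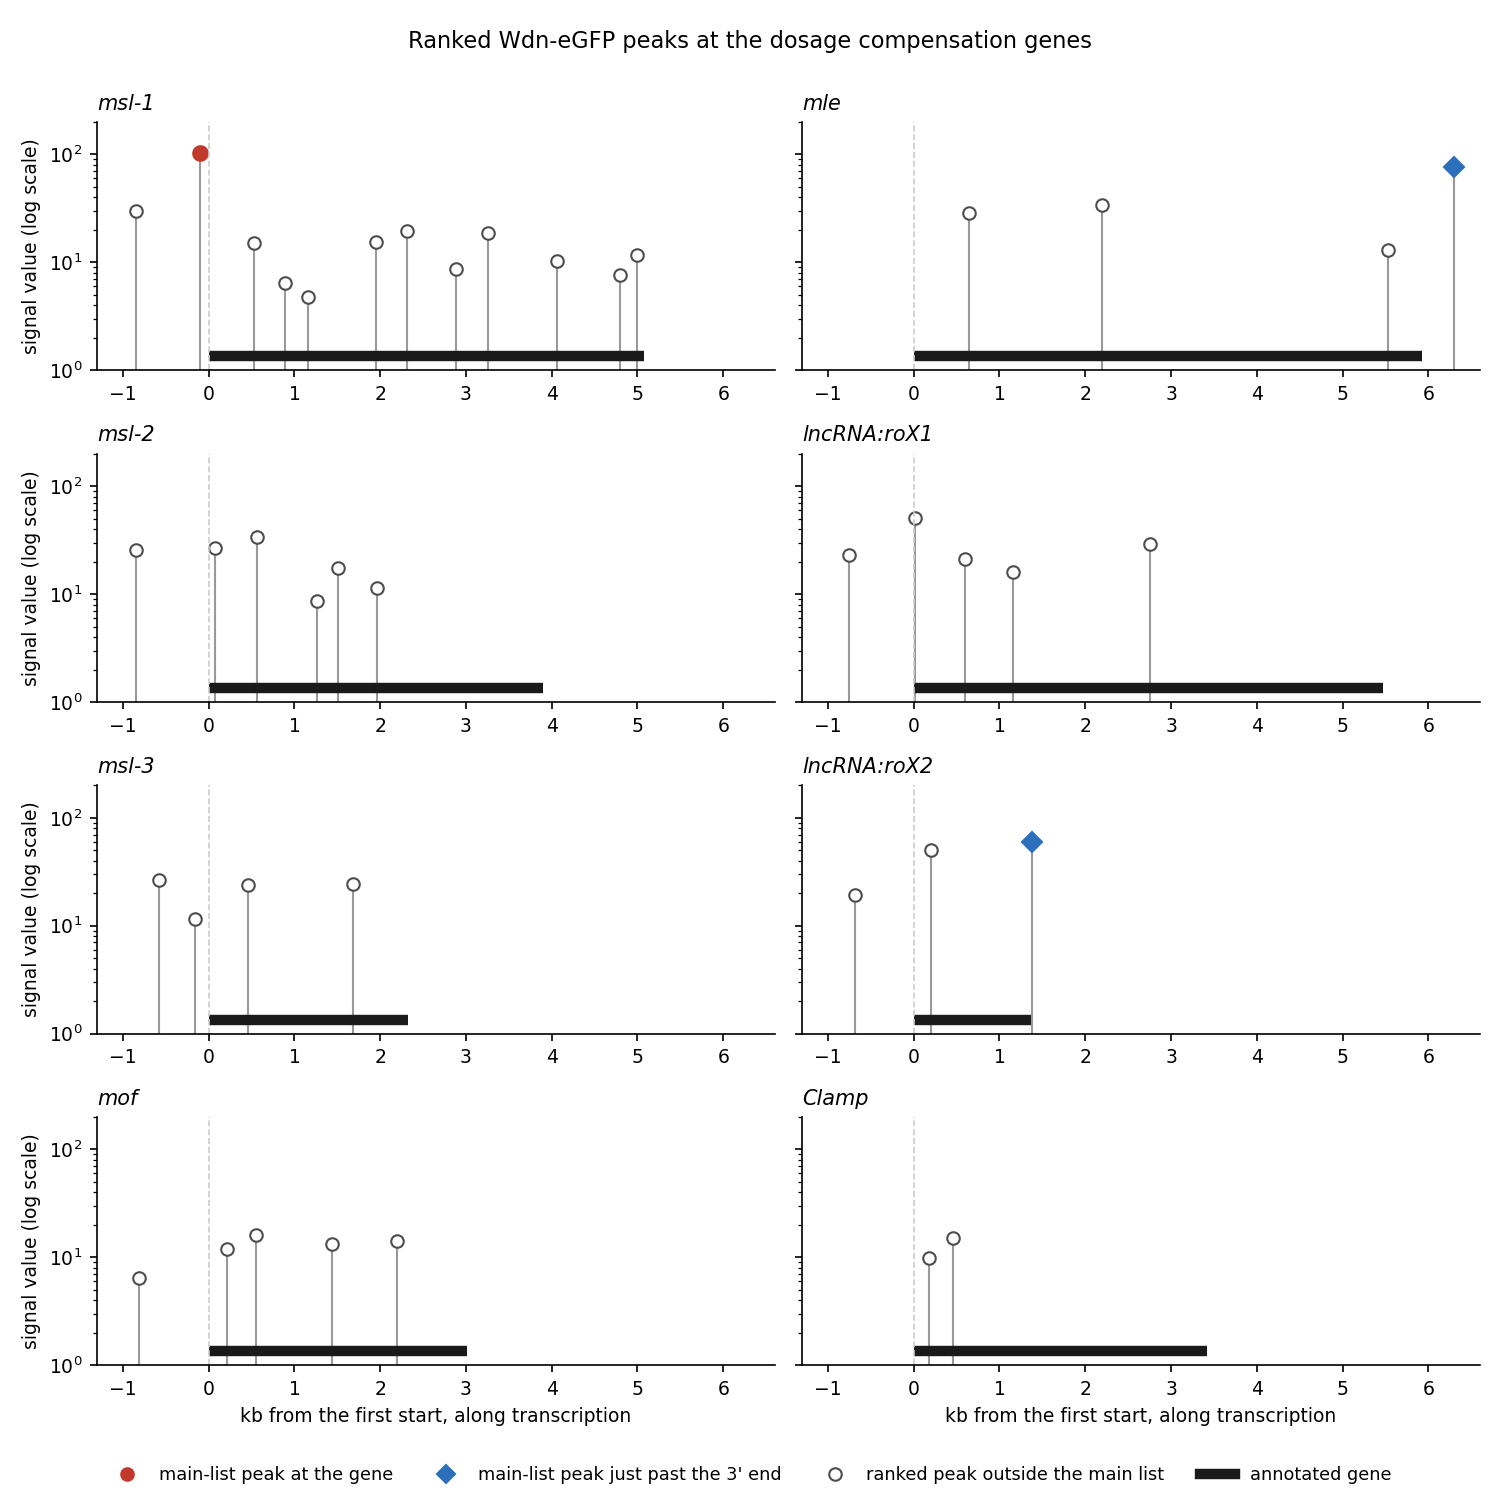
Ranked peaks of the main ranked list at each of the 8 genes, as signal value on a log scale (vertical axis) against distance from the first start in kb along transcription (horizontal axis). The black bar is the annotated gene, open circles are unlisted peaks, the red circle at msl-1 (signal 104) is the only main-list peak assigned to a member, and blue diamonds are main-list peaks just past the 3′ ends of mle (76.7) and lncRNA:roX2 (59.4).

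The msl-2 gene (FBgn0005616, 2L 3462218 to 3466112, minus strand), whose protein limits complex formation to males, had 6 ranked peaks and none in any of the 4 thresholded lists. The strongest, at 3465554 in a coding exon 558 bp past the start, had a signal of 33.4 and a main IDR of 0.706. The peak nearest the start, at 3466040 in the 5′ UTR, lay 72 bp past the start and 117 bp upstream of the diverging start of ND-PDSW, which encodes a subunit of respiratory complex I. Its signal was 27.0, with 14.5 in replicate 1 and 13.0 in replicate 2, or 13.8 ± 1.07 (SD, n = 2). Its IDR was 0.740 in the main ranked list and 0.0866 in the ranked list of replicate 2, the lowest IDR of any msl-2 peak in the 4 ranked lists. The lowest main IDR, 0.242, belonged to a peak 853 bp upstream of msl-2 and inside ND-PDSW. The nearest main-list summit stood 6342 bp from the msl-2 start, 149 bp upstream of Pgant4, with a signal of 63.9. Neither replicate listed that peak on its own.

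The msl-3 gene (FBgn0002775, 3L 7123213 to 7125533, minus strand) had 4 ranked peaks, all unlisted. The best, at 7126111, lay 578 bp upstream of msl-3 and 206 bp inside the neighbour BBS1, which encodes a protein of cilia. Its signal was 26.5 with a main IDR of 0.388, and its replicate values were 14.4 and 12.4, or 13.4 ± 1.39 (SD, n = 2). The other 3 had signals of 11.6 to 24.5 and main IDRs of 0.747 or more. The lowest IDR at msl-3 was 0.608 in the ranked list of replicate 1 and 0.931 in that of replicate 2. The weakest of them, 165 bp upstream of msl-3 and 207 bp upstream of BBS1, was in neither ranked list of the replicates. The nearest main-list summit stood 8607 bp away, 376 bp upstream of melt, with a signal of 87.5, and only replicate 2 listed it on its own.

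The acetyltransferase gene mof (FBgn0014340, X 5873840 to 5876853, minus strand) had 5 ranked peaks with low signals of 6.41 to 16.2. The lowest main IDR was 0.579, at 5874652 in a coding exon, where the signal was 14.3. Replicate 1 ranked no peak at mof and replicate 2 ranked 3, all at the highest IDR of its list (0.931), with signals of 6.80 to 9.49. The weakest main-ranked peak, 813 bp upstream, fell inside the neighbour Usp30. A main-list summit was first met 15398 bp from the mof start, with a signal of 69.0. Only replicate 2 listed that peak on its own, and the conservative list lacked it.

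The helicase gene mle (FBgn0002774, 2R 5974857 to 5980778, minus strand, with 2 annotated starts) had 3 ranked peaks, none listed and none ranked in both replicates. The strongest, at 5978585 in a coding exon, had a signal of 33.8 and a main IDR of 0.161, and 13.5 in replicate 1, with no overlapping peak in replicate 2. A peak at 5980130 (signal 28.6, IDR 0.661), in a coding exon, lay 29 bp upstream of the later start at 5980101. It was inside the gene, whose first start is at 5980778. The third had a signal of 13.0 and the highest IDR of the main ranked list, 0.862. A main-list peak did stand just past the 3′ end, at 2R 5974332 to 5974635, with its summit 373 bp beyond mle and 99 bp upstream of the start of BubR1, a mitotic checkpoint kinase gene. Its signal was 76.7 with an IDR of 0.00104, and replicate 1 gave 36.8 and replicate 2 gave 39.5. Replicate 2 listed it (IDR 0.00237), whereas replicate 1 ranked it with an IDR of 0.0419. It overlapped mle by no base and was not counted at the gene.

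The roX1 gene (FBgn0019661, X 3857230 to 3862697, minus strand, with 3 annotated starts) had its strongest peak at the most upstream start, where the summit at 3862688 lay 9 bp inside the transcript. The peak was unlisted, with a signal of 51.2, rank 3336 of 132052 in the main ranked list, a main IDR of 0.0463 and a conservative IDR of 0.0673. Replicate 1 gave 27.2 (IDR 0.181) and replicate 2 gave 17.3 (IDR 0.736), or 22.2 ± 6.94 (SD, n = 2), with summits 10 bp apart. Of the 3254 main-list peaks, 401 had a signal below this one, and 482 unlisted ranked peaks had a signal above it. Both replicates therefore placed a peak on the roX1 start, and neither listed it. The other 4 ranked peaks had IDRs of 0.322 or more. The strongest of these, with 29.2, was at 3859947 in an exon, and another, 759 bp upstream with 23.0, lay inside the neighbour yin. The nearest main-list summit stood 5932 bp from the most upstream start, 298 bp upstream of a start of yin and 344 bp upstream of CG2930, with a signal of 69.4. Only replicate 1 listed that peak on its own.

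The roX2 gene (FBgn0019660, X 11579065 to 11580432, plus strand) showed signal at both ends. Near the start, the summit at 11579261 lay 196 bp inside the exon with a signal of 50.4, a main IDR of 0.0334 and a conservative IDR of 0.0139, short of the threshold in both. Replicate 1 gave 25.7 (IDR 0.541) and replicate 2 gave 23.1 (IDR 0.417), or 24.4 ± 1.84 (SD, n = 2), with summits 9 bp apart. Signals lay below this one in 359 main-list peaks and above it in 527 unlisted ranked peaks. A further ranked peak 683 bp upstream, inside CG11695, had a signal of 19.1, and its IDR was 0.705.

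The listed peak at the 3′ end of roX2 spanned X 11580297 to 11580600 and covered the last 136 bp of the gene. Its summit at 11580449 stood 17 bp past the last base and 323 bp upstream of the start of nod, which encodes a kinesin-like protein of chromosome segregation. The signal was 59.4, rank 2371 of 3254, with 27.1% of main-list peaks lower, and the IDR was 0.00116 in the main and 0.00326 in the conservative ranked list. Replicate 1 gave 31.8 (IDR 0.00905, rank 1897 of 1996) and replicate 2 gave 30.2 (IDR 0.00577), and both listed it. The replicate 1 summit, at 11580397, fell inside the last bases of roX2, so roX2 counted as called in that replicate, and the replicate 2 summit, at 11580455, fell outside. With any overlap in place of the summit, roX2 joined msl-1 among the called members, for 2 of 8, against 18.4% of all genes under the same rule.

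**Figure D2:**
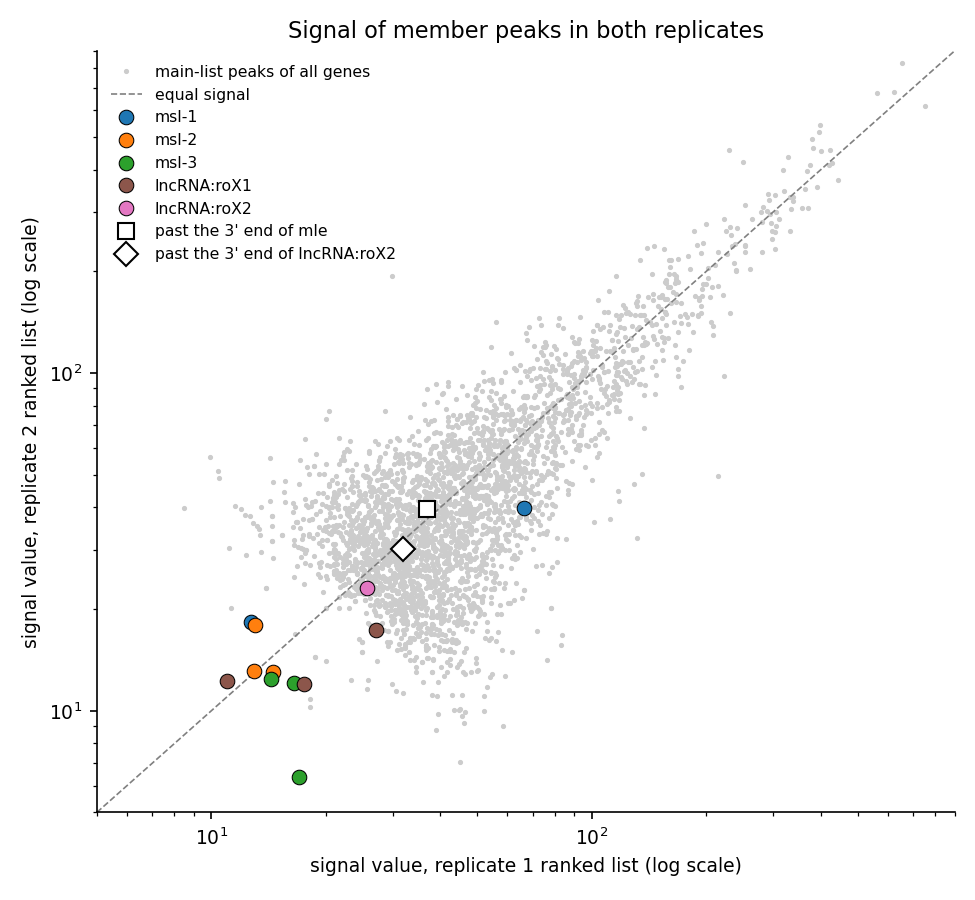
Signal value in the ranked list of replicate 1 (horizontal axis, log scale) against that of replicate 2 (vertical axis, log scale). Grey points are main-list peaks ranked in both replicates, coloured circles are the member peaks ranked in both, open symbols are the listed peaks past the 3′ ends of mle and lncRNA:roX2, and the dashed line marks equal signal. The msl-1 promoter peak (66.3 and 39.9) lies within the grey cloud below the line, and the peaks at the starts of lncRNA:roX1 (27.2 and 17.3) and lncRNA:roX2 (25.7 and 23.1) lie at its lower edge.

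Clamp (FBgn0032979, 2L 22165720 to 22169143, minus strand) was the member farthest from any listed peak. It had 2 ranked peaks in the main ranked list, with signals of 15.2 (an intron, IDR 0.703) and 9.93 (the 5′ UTR, IDR 0.862). Replicate 1 ranked 4 peaks there, the strongest with 24.2 at an IDR of 0.687, whereas replicate 2 and the conservative ranked list had none. The nearest main-list summit stood 274367 bp from the Clamp start, and 339 of 18164 genes (1.87%) were farther from one. The median distance over those genes was 11384 bp. The peak nearest to Clamp had a signal of 47.1 and an IDR of 0.00891. Neither replicate listed that peak on its own, and the conservative list lacked it. No main-list summit lay between Clamp and the end of arm 2L, where the list had 600 summits in all. Ranked peaks of any IDR were also sparser there, with 35.4 per 100 kb within 274367 bp of the Clamp start against 100 per 100 kb over the arm, and the lowest IDR among those 194 was 0.0138. The part of this lower peak density in the lack of a peak at Clamp was not tested.

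Over the 8 genes, the main ranked list held 39 peaks, 2 to 12 per gene with a median of 4.5, and the median over all genes was 3. The members had a median length of 3659.5 bp, against 1646 bp for all genes. Every member had at least 1 ranked peak, as did 90.6% of all genes, so a ranked peak alone says little about a gene. Of the 39, 38 were unlisted and 18 stood at the highest IDR of the list, where 45.1% of all its peaks lie. By place, 20 lay in coding exons, 8 upstream of the gene, 5 in exons of the noncoding roX genes, 3 in 3′ UTRs, 2 in 5′ UTRs and 1 in an intron. Overlap with a ranked peak of both replicates was found for 12 of the 39, and 9 overlapped none in either. No share over all ranked peaks is given beside the counts by place and by overlap. They describe these 39 peaks only and do not set the members apart from other genes.

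Ordered by their best IDR in the main ranked list, the members ran from msl-1 through roX2, roX1, mle, msl-2, msl-3 and mof to Clamp. The place of mle rested on a peak that the conservative ranked list lacked. In that list the best IDR was 0.876 for mle, against 0.329 for msl-2 and 0.393 for msl-3. The share of all genes with an equal or lower best IDR was 6.88% for msl-1, 22.3% for roX2, 23.9% for roX1 and 33.7% for mle. It was 39.4% for msl-2, 50.2% for msl-3, 66.4% for mof and 78.4% for Clamp. The members were thus spread over most of the range of all genes. The roX2 and roX1 genes, next to each other in this order and far apart on the X, had a best main IDR of 0.0334 and 0.0463. Both replicates ordered them the same way by best IDR, which was 0.00905 for roX2, from the 3′ end peak, and 0.181 for roX1 in replicate 1, and 0.417 for roX2 and 0.736 for roX1 in replicate 2. The signals of the start peaks alone had no such order, since roX1 was higher in replicate 1 and roX2 in replicate 2. At an IDR of at most 0.05 both roX genes joined msl-1, for 3 of 8, against 24.3% of all genes.

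**Figure D3:**
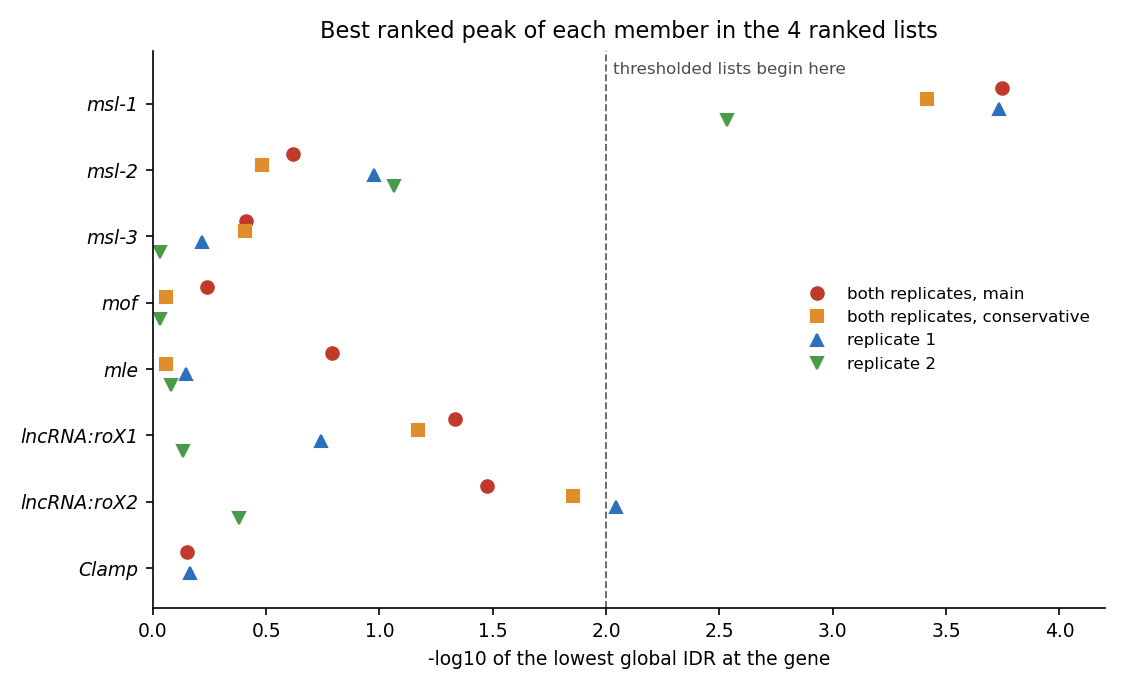
The -log10 of the lowest global IDR (horizontal axis) of each gene in the 4 ranked lists, for both replicates together (red circles, main list, and orange squares, conservative list) and for replicate 1 (blue triangles) and replicate 2 (green inverted triangles). A missing symbol means no ranked peak, and the dashed line at 2.0 is the limit of the thresholded lists. All 4 symbols of msl-1 are past the line, and lncRNA:roX2 passes it in replicate 1, through the peak at its 3′ end.

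The replicates' own lists gave nearly the same count of members. Replicate 1 listed a peak at 2 of the 8, msl-1 and roX2, against 11.9% of all genes, and replicate 2 at 1, msl-1, against 11.7%. Among protein-coding genes, 20.5% had a main-list summit, and 1 of the 6 protein-coding members, msl-1, did. No test was made of these counts, since the genes were chosen by name and 8 genes are not replicates.

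A search of both strands for 10 sequence words, over 50 bp on either side of a summit, found none at the msl-1 peak or at any of the 3 roX peaks printed with it. The words were GAGAG and GAGAGAGA, GA repeats of the kind bound by CLAMP and the GAGA factor, TATCGATA, the core of the DNA replication-related element, GGTCACACT, part of the site of M1BP, and 6 words reported earlier from these same data (TTAAAAAA, TATATTAA, CACAGTGG, AAAAATGT, CACTGTGC and ACAGTGGG). Shorter words lie inside longer ones, so a GAGAGAGA match is also a GAGAG match, and CACAGTGG and ACAGTGGG share 7 letters. GAGAG occurred at 10.3% of main-list summits and 12.5% of unlisted ranked summits. GAGAGAGA occurred at 0.831% and 0.664%. TATCGATA occurred at 1.39% of main-list and 0.266% of unlisted summits, and the 6 other words at 1.32% (ACAGTGGG) to 5.85% (TTAAAAAA) of main-list summits and 0.402% to 1.47% of unlisted ones. Those 6 words were taken from these same data, so their shares are not independent support for them. No match says only that these letters are not in these windows.

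Of the 39 ranked peaks at the members, the unlisted msl-2 peak in the 5′ UTR was the one with more than 1 of the words within 50 bp, and 3 others, at msl-1, mle and roX1, held GAGAG alone. The msl-2 peak held GGTCACACT, found at 0.554% of main-list and 0.122% of unlisted summits, and CACTGTGC, found at 1.85% and 0.497% and read there as its reverse complement. Within 100 bp, the mle peak at 5975249 held 2 of the words as well, GAGAG and AAAAATGT. The roX2 gene had 6 GAGAG words, counted on both strands with overlaps, or 4.39 per kb, and 2 GAGAGAGA matches, and the nearest GAGAG was 293 bp from the summit near its start. The roX1 gene had 5, at 0.914 per kb, the nearest 1335 bp from its strongest summit, and msl-1 had 6, at 1.18 per kb, the nearest 1246 bp away. None of these 3 summits had GAGAG within 50 bp. Among the other members the rate ran from 0.844 per kb at mle to 1.8 per kb at msl-2, which had 7 words. The msl-1 and mle genes held 1 GAGAGAGA match each. No rate over all genes is given beside these counts, so they do not set roX2 or any other member apart. The sequence within 50 bp of the summit held 58.4% A and T at msl-1, 63.4% at roX1, 65.3% at the roX2 start and 71.3% at the roX2 3′ end. Main-list peaks averaged 63.5% ± 10.8 (SD over 3248 peaks) and unlisted ones 53.2% ± 9.55 (SD over 127248 peaks). All 4 windows were within 1 SD of the main-list mean, and the msl-1 window was within 1 SD of the unlisted mean as well. The 2 ranges overlap, so these values do not place a window in either class.

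The 3 main-list peaks most like that of msl-1, by distance in log2 signal over the 2 replicates, stood nearest to the starts of CG14269, CG10734 and larp. The CG14269 peak had a signal of 65.3 in replicate 1 and 40.5 in replicate 2 (distance 0.03), and its summit was 3969 bp downstream of the start. The CG10734 peak had 66.0 and 41.2 (distance 0.04). The larp peak had 65.9 and 41.2 (distance 0.05) and, like the one at msl-1, lay shortly upstream of the start, by 137 bp; larp encodes an RNA-binding protein.

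Genes that act around the MSL complex were described from 4 lists of 42 distinct genes, written with earlier results of these data known. Of the 42, 15 had a main-list summit (35.7%, against 17.7% of all genes), 12 in the list of replicate 1 and 12 in that of replicate 2. The lists hold long genes such as fru, of 131314 bp, and a longer gene has more room for a summit. With the gene body left out and starts alone counted, 13 of the 42 were called within 1 kb, against 15.3% of all genes, and 12 within 500 bp, against 12.3%. The shares are a description of chosen genes, and the difference from the member count was not tested.

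The regulators of msl-2 mRNA had a listed peak at 3 of 4 genes, against 17.7% of all genes, and of these Sxl spans 23504 bp and how 37131 bp, where the median gene spans 1646 bp. Unr, an RNA-binding partner of Sxl on msl-2 mRNA, had a peak 65 bp upstream of its start with a signal of 123, and 72.0 in replicate 1 and 58.7 in replicate 2. The RNA-binding gene how had an intron peak with a signal of 107 (48.8 and 59.3). Sxl itself had 2 listed peaks, the stronger in an intron 426 bp past a start with a signal of 82.0 (54.6 and 28.1), and replicate 1 alone listed it on its own. Hrb27C, another repressor of msl-2 translation, was listed in replicate 1 only. No thresholded list had a peak at msl-2 itself.

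Among 6 NSL complex genes, whose proteins share MOF with the MSL complex, 2 had a listed peak, against the same 17.7% of all genes. Rcd5 had a signal of 135 at a summit 150 bp upstream of its start and 88 bp upstream of CG11593, with 56.0 in replicate 1 and 78.6 in replicate 2. The nsl1 gene had 63.2 at 138 bp upstream (19.7 and 44.2), was listed by replicate 2 alone and was absent from the conservative list.

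Of 9 genes for chromatin proteins tied to the MSL complex or the male X, 5 were listed, against 17.7% of all genes. Trl, which encodes the GAGA factor, had 6 listed peaks, the strongest with a signal of 725 in an intron (319 in replicate 1 and 399 in replicate 2). Chro, a chromodomain protein of interbands, had 669 at 105 bp past its start (339 and 332), and the same summit lay 210 bp upstream of Ssl1. JIL-1, a histone H3 kinase enriched on the male X, had 155 in an intron (84.2 and 75.2). The pzg gene had 97.5 at 180 bp upstream, and the same summit lay 43 bp past a start of CG12974. Its signal was 38.6 in replicate 1 and 61.0 in replicate 2, which alone listed a peak at pzg. Top2, a topoisomerase, had 56.2 at 51 bp upstream, where CG10026 starts 715 bp away, and neither replicate listed Top2 on its own. Set2, Su(var)3-7, Iswi and E(bx) had none. The Trl and Chro signals stood at ranks 18 and 23 of the main list, against rank 1003 for msl-1.

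Of 24 genes of X counting and sex determination, 6 were listed (25%, against 17.7% of all genes), including Sxl. The corepressor gene gro had the highest signal, 269, with 123 in replicate 1 and 151 in replicate 2. The others were fl(2)d (95.1), a cofactor of Sxl splicing, emc (91.9), an antagonist of bHLH proteins, fru (81.9), a transcription factor of male behaviour, and da (60.1), a bHLH activator of Sxl. The fl(2)d summit lay 105 bp upstream of that gene and 200 bp upstream of CG13339. The X-linked signal elements sisA, sc, upd1 and run had no listed peak, nor did tra, tra2 and dsx. The gene ix was in the conservative list and not in the main one.

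**Figure D4:**
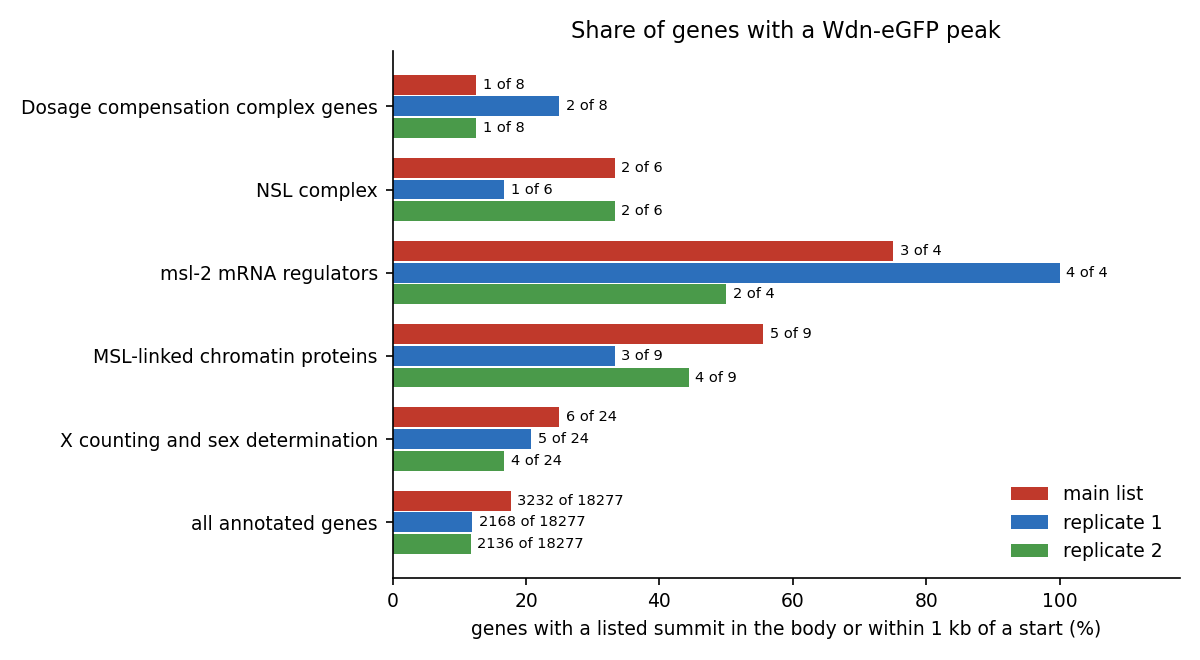
Share of genes, in percent, with a listed summit in the gene body or within 1 kb of a start, for the 8 dosage compensation complex genes, the 4 related lists and all annotated genes (rows), in the main list (red), replicate 1 (blue) and replicate 2 (green). Counts stand beside the bars. The 8 genes had 1, 2 and 1 called, or 12.5%, 25% and 12.5%, against 17.7%, 11.9% and 11.7% of all genes, and the msl-2 mRNA regulators (3, 4 and 2 of 4) reach the highest shares.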

How the data were processed

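ChIP-seq peak lists from 2 replicates were used as deposited, on dm6 per the file headers. The authors gave each peak a signal value, and the deposited ranked lists add a -log10 value of its global IDR, which reaches at most 5. Thresholded lists held ranked peaks at an IDR of at most 0.01, but not all of them. In the main ranked list 3375 peaks met that limit, and the main list held 3254. With the missing ones added, msl-1 was still the only member with such a peak, against 18.0% of all genes. The aligner and peak caller and their versions are not given in the sources used here. Genes came from the Ensembl release 115 annotation, and summits were assigned to them with Python 3.11.15 and pandas 2.3.3, and transposable element copies were left out. Replicate support needed an overlap of 1 base. The words and sequences were read from RefSeq Release 6, whose chromosome lengths hold every peak. The 8 per-sample columns in each of the 2 ranked lists of both replicates have no sample label and were not used.

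No test was run, since there was 1 group of 2 replicates. The members, lists and words were chosen with earlier results of these data known. Named were all members, up to 6 listed genes per related list by signal, and genes sharing a member's peak. The 3 peaks most like that of msl-1 were named too. Further genes without a listed peak, genes beside the nearest listed peaks, and genes sharing a related gene's peak were named after their values were seen. Gene assignment and word search were tested on simulated data. Alternatives covered other lists, IDR limits, windows, overlap rules and leaving out a replicate.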

Additional observations from a re-analysis of the deposited data

How the results depend on the processing

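Of 93 alternative values, 65 kept their value within the limits set and 28 moved. The number of members with a main-list peak, and of such peaks, was 1 to 2 when either replicate was left out, the 2 being msl-1 and roX2 with replicate 1 alone, 0 with the gene body alone, because the msl-1 summit lies upstream, 2 with any overlap in place of the summit, and 3 at an IDR of at most 0.05. The share of all genes was 10.9% at an IDR of at most 0.001, 15.5% with the conservative list, 11.7% to 11.9% without a replicate, 15.3% within 1 kb of starts only, 12.3% within 500 bp, 8.14% with the gene body alone, 18.4% with any overlap, 24.3% at an IDR of at most 0.05 and 20.5% for protein-coding genes. The last 2 settings were chosen after seeing the data. The related lists gave 9 of 42 genes with the gene body alone. The msl-1 signal was 39.9 to 66.3 without a replicate, on the scale of the remaining replicate's list, and 63.4% of peaks were lower than it in the conservative list, against 69.2% in the main list. No paired analysis was possible because there was 1 group. Read depth is unknown, no control was analysed, and 2 replicates give no test of a single peak, so an unlisted peak at a member is not shown to be absent binding.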
